A study of Homo sapiens with 9 samples.

Results

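A set of 10 receptor tyrosine kinase genes was measured in A375P cells, a long-established melanoma line of human origin with a mutant RAF kinase. They were the ephrin receptors EPHA2 and EPHA4, the collagen receptor DDR1, the insulin-family receptors IGF1R and INSR, the VEGF receptor KDR, and the receptors AXL, MET, KIT and PDGFRB. They were taken by name, with earlier results of these data known, 10 of 17047 genes that had a row naming 1 gene. For each gene the row with the highest mean intensity was used, and levels are given as the deposited intensity or as log2(intensity + 1). Cells received 1 µM PD184352, which inhibits the MEK kinases, or 0.4 µM PLX4720, an inhibitor of mutant RAF kinase, or the solvent DMSO, each for 2, 6 or 24 h. All samples are of this 1 cultured line. The 9 deposited columns, called arrays here, give 1 array for each agent and time. The design text speaks of triplicates, but the sources used here do not say whether a column is an average.

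Receptor tyrosine kinases are membrane proteins that bind an extracellular ligand, pair up and phosphorylate one another on tyrosines, to which adaptor proteins then dock. Many of them feed the RAS-RAF-MEK-ERK cascade that both compounds block, and ERK in turn controls the transcription of several receptor genes and of their negative regulators. In melanoma, AXL, MET, PDGFRB, IGF1R and the ERBB receptors are known for their link to tolerance of RAF and MEK inhibitors, and KIT is needed for normal melanocyte development. EPHA2 and EPHA4 belong to a published transcript signature of MAPK pathway activity.

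The promoter windows listed here are those of the 4 receptors called at 24 h, shown because the changes concern transcript levels. They hold the 250 bases before an annotated start, from RefSeq on GRCh38.p14, 5′ to 3′ on the gene's strand. All 10 genes matched this table, with 19 windows in all, of which DDR1 had 8, EPHA4 2 and AXL 2. The DDR1 window listed was picked for its motif match. It is 40% GC, against 59.6% to 79.6% in the other DDR1 windows. Capitals mark matches, on either strand, to GGGCGG (the GC box), TGACGTCA (the CRE) and TGACTCA (an AP-1 site). The windows lie at chr1:16156070-16156319 on the minus strand (EPHA2), at chr2:221574203-221574452 and chr2:221572305-221572554 on the minus strand (EPHA4, windows A and B), at chr15:98648289-98648538 on the plus strand (IGF1R), and at chr6:30888438-30888687 on the plus strand (DDR1, the window with the AP-1 match).
EPHA2: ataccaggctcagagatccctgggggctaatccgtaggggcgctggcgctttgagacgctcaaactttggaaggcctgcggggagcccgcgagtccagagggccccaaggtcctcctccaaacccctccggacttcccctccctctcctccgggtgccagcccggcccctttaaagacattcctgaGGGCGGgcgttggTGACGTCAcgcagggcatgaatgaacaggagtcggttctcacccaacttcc
EPHA4 window A: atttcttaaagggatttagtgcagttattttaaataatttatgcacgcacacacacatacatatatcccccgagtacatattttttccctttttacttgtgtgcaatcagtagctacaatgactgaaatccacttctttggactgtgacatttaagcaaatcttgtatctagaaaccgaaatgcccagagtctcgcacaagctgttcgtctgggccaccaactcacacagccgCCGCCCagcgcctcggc
EPHA4 window B: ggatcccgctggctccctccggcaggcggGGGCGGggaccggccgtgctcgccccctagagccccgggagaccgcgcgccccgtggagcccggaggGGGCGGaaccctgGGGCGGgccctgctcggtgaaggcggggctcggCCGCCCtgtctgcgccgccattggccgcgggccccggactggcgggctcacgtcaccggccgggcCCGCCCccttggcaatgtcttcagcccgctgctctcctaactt
IGF1R: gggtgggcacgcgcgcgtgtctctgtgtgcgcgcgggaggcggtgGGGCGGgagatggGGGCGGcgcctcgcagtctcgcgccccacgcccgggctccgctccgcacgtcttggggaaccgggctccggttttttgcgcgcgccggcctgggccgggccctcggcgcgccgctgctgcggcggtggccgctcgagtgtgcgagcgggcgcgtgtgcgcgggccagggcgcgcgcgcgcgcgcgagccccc
DDR1: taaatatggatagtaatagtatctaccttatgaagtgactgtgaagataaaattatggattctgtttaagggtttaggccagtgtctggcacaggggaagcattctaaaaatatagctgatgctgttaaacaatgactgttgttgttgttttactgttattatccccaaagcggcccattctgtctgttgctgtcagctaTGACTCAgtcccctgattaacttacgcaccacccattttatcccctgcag

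The GC box was present in 14 of the 19 windows, against 42.6% of 34796 promoter windows of the same length. The DDR1 windows that begin at chr6:30883658 and chr6:30883834 overlap and hold the same GC box, so the 14 are not all separate. All 10 genes had a GC box in at least 1 window, but some have several windows and no share per gene was computed. The CRE was found in 1 window, that of EPHA2, where it began 51 bases before the start, against 1.64% of all windows. The AP-1 letters occurred in 1 window, of DDR1, beginning 50 bases before the start, against 4.21% of all windows. That DDR1 window held no GC box. A search for the ETS core CCGGAA, the FOXO site GTAAACA and the E-box CACGTG, also on both strands, found the ETS core in 1 window, of AXL, and the other 2 in none, against 14.5%, 2.98% and 6.31% of all windows. The CRE and GC box were added to the search after the sequences had been read. These matches describe letters in the windows and were not tested for binding.

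Of the 10 genes, 9 were tested and KIT was not, because its mean intensity of 30.8 was below the lowest mean of a tested gene, 73.5. At each time the PD184352 and PLX4720 arrays together were set against the matching DMSO array in a limma fit across 12785 genes, and a gene was called at a Benjamini-Hochberg adjusted p below 0.05. The fit takes its spread from how far the PD184352 and PLX4720 arrays of a time lie apart. Since these compounds are not replicates of one another, and DMSO has a single array at each time, the p-values say nothing of the spread between cultures. Median intensities per array lay between 98.96 and 102.4, and the 99th percentile was 1550 to 1654 on inhibitor arrays, against 1681 to 1754 on DMSO arrays. Of the 10 melanocyte markers with a row, 9 passed the intensity filter, as did 6 of 9 endothelial, 4 of 7 fibroblast, 3 of 6 leukocyte and 2 of 6 keratinocyte markers. The filter removed the dimmest 25% of genes and is not a test of detection. In a bulk culture, fewer cells of a kind and less RNA per cell cannot be told apart.

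The receptors moved in different directions and at different times. EPHA4 and EPHA2 fell at 6 h and were still lower at 24 h, KDR fell at 6 h and was not called at 24 h, IGF1R fell at 24 h, and DDR1 rose at 24 h. At 2 h, 0 of the 9 tested receptors were called by limma, beside 21 of 12785 genes (0.164%). An unadjusted limma p below 0.05 was found for 2 of the 9, EPHA2 and EPHA4, against 7.43% of all tested genes. At 6 h, 3 of 9 were called lower, against 2.75% of all tested genes, and 0 were called higher, against 0.54%. At 24 h, 3 of 9 were called lower, against 19.2% of all tested genes, and 1 of 9 higher, against 12.5%. Because the receptors were chosen with earlier results of these data known, their counts are not independent of these data. The median log2 change of the 9 receptors was −0.15 at 2 h, −0.26 at 6 h and 0.05 at 24 h, against −0.02, −0.02 and −0.01 over all tested genes.

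**Figure D1:**
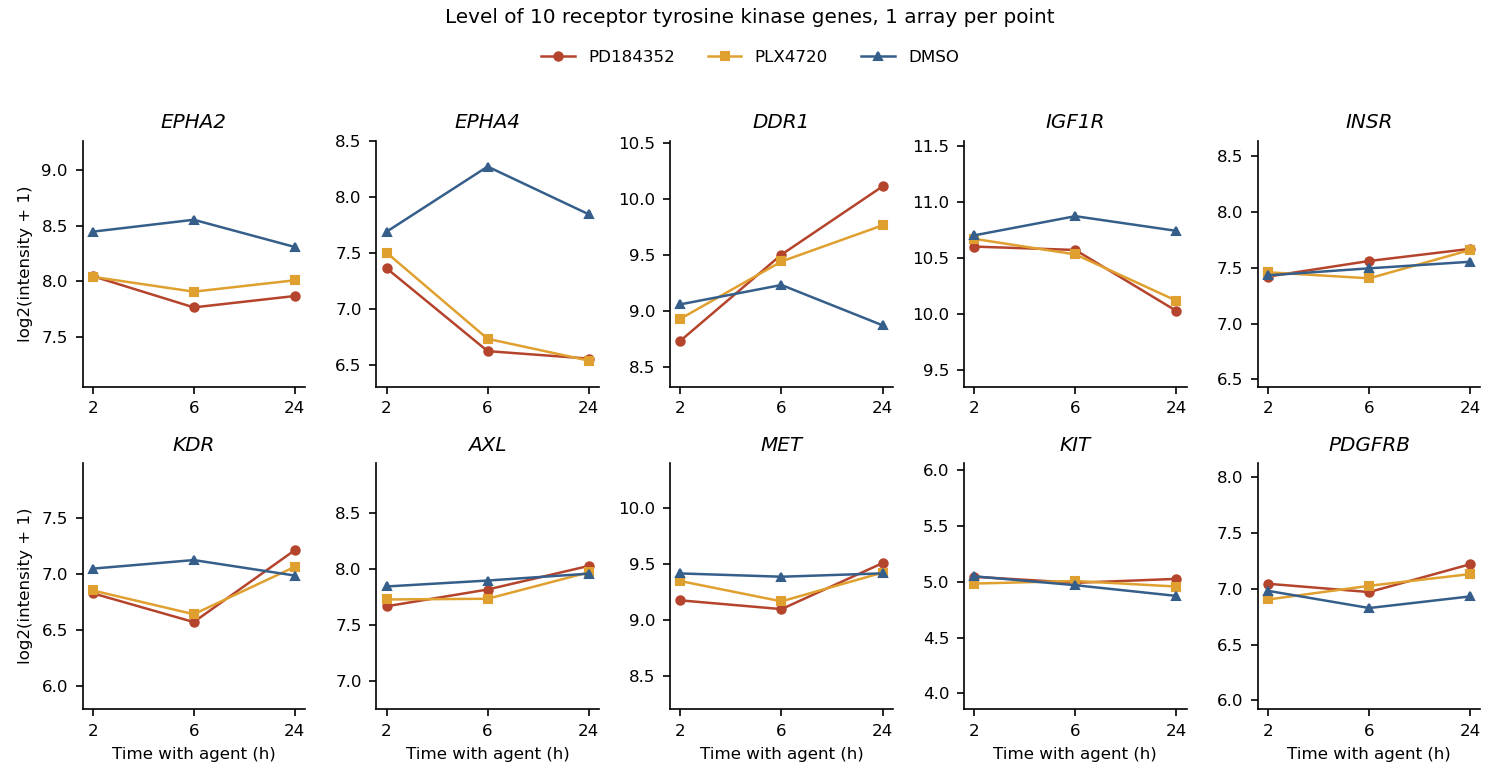
Level of each receptor gene as log2(intensity + 1), on the y axis, against time with the agent in h (2, 6 and 24, evenly spaced), with 1 array per point and all panels spanning the same range of log2 units. The inhibitor lines of EPHA4 run below the DMSO line at all 3 times, while those of DDR1 end above it at 24 h and those of KDR dip at 6 h.

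EPHA4, an ephrin receptor that guides axons and cell sorting in the embryo, fell furthest. Its intensity was 164, 97.4 and 93.0 at 2, 6 and 24 h with PD184352 and 180, 105 and 91.8 with PLX4720, against 205, 308 and 229 with DMSO. All 6 inhibitor arrays lay below all 3 DMSO arrays, and the inhibitor arrays of 6 and 24 h were close to each other. Those of 6 and 24 h also lay near the array medians, 98.96 to 102.4, and detection at that level was not tested. The mean log2 change was −0.26 (SE 0.10) at 2 h, which was not called (adjusted p = 0.565), −1.60 (SE 0.10, adjusted p = 2.05e-05) at 6 h and −1.30 (SE 0.10, adjusted p = 8.88e-06) at 24 h. At 6 h this is 0.331 of the DMSO level, and at 24 h 0.406. The DMSO arrays of EPHA4 themselves spanned 0.58 on the log2 scale, with the 6 h array highest. Against the mean of the 3 DMSO arrays the change at 6 h was −1.26 and at 24 h −1.39, both still called.

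EPHA2, which binds ephrin-A ligands and is carried by many epithelial and melanoma cells, was called lower at 6 and 24 h. It read 264, 217 and 233 with PD184352 at 2, 6 and 24 h and 263, 239 and 257 with PLX4720, against 348, 374 and 316 with DMSO. No inhibitor array reached the lowest DMSO array. The log2 change was −0.40 (SE 0.10, adjusted p = 0.322) at 2 h, −0.71 (SE 0.10, adjusted p = 0.00344) at 6 h and −0.37 (SE 0.10, adjusted p = 0.0161) at 24 h. Its 2 h difference was the same for both compounds to 2 decimals, −0.40. Without the PD184352 24 h array the 24 h change was −0.30 and was not called (adjusted p = 0.0744).

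IGF1R, the receptor for insulin-like growth factors, fell later. Its intensity was 1554, 1522 and 1042 with PD184352 at 2, 6 and 24 h and 1631, 1481 and 1111 with PLX4720, against 1667, 1877 and 1714 with DMSO. All 6 inhibitor arrays lay below all 3 DMSO arrays; those of 24 h stood well apart, while those of 2 h were close to the DMSO array of that time. The log2 change was −0.07 (SE 0.09, adjusted p = 0.899) at 2 h, −0.32 (SE 0.09, adjusted p = 0.0879) at 6 h and −0.67 (SE 0.09, adjusted p = 0.000276) at 24 h. A second, dimmer row of the gene, transcript cluster 3610958, gave −0.06, −0.46 and −0.89 at the same times, and row 3610804, used here, the values above. In both rows the change was further below 0 at each later time.

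INSR, the insulin receptor and a close relative of IGF1R, had intensities of 170, 188 and 202 with PD184352 at 2, 6 and 24 h and of 175, 168 and 201 with PLX4720, against 172, 179 and 187 with DMSO. The arrays of the 3 agents overlapped. Its log2 change at 24 h was 0.11 (95% interval −0.10 to 0.32, adjusted p = 0.438), and at 2 and 6 h it was 0.01 and −0.01. Neither time was called.

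DDR1, a receptor activated by collagen instead of a soluble growth factor, was the one receptor called higher. It read 425, 725 and 1107 with PD184352 at 2, 6 and 24 h and 487, 695 and 870 with PLX4720, against 532, 600 and 467 with DMSO. Both inhibitor arrays were below DMSO at 2 h and above it at 6 and 24 h. The log2 change was −0.23 (SE 0.14, adjusted p = 0.740) at 2 h, 0.24 (SE 0.14, adjusted p = 0.470) at 6 h and 1.07 (SE 0.14, adjusted p = 0.000242) at 24 h, where the level was 2.10 times that of DMSO. The DMSO 24 h array was the lowest of the 3 DMSO arrays, and against their mean the change at 24 h was 0.89, still called. Of 9 tested melanocyte markers, 5 were called higher at 24 h and 0 lower, against 12.5% and 19.2% of all tested genes, with a median change of 0.44. MITF was at 0.22 and GPR143, SLC45A2 and OCA2 were between −0.02 and 0.03, none of them called, and the marker median was −0.01 at 2 h and −0.004 at 6 h. The summed intensity of the 9 markers was 6707 with PD184352 and 6185 with PLX4720 at 24 h, against 4829 with DMSO, and over all times 4633 to 6707 on inhibitor arrays, against 4829 to 5135 on DMSO arrays. The markers' part in the rise of DDR1 was not tested.

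KDR, the main signalling receptor for VEGF-A in endothelial cells, read 113, 94.0 and 147 with PD184352 at 2, 6 and 24 h and 115, 98.7 and 133 with PLX4720, against 131, 139 and 126 with DMSO. These values lay around or little above the array medians, 98.96 to 102.4, and detection of KDR was not tested. Both inhibitor arrays lay below DMSO at 2 and 6 h and above it at 24 h. The log2 change was −0.21 (SE 0.09, adjusted p = 0.670) at 2 h, −0.52 (SE 0.09, adjusted p = 0.0144) at 6 h and 0.15 (SE 0.09, adjusted p = 0.267) at 24 h. The 6 h call depended on both arrays of that time: the adjusted p was 0.0885 without PD184352 6 h and 0.0512 without PLX4720 6 h. None of the 6 tested endothelial markers was called by limma at any time (0 at 2, 6 and 24 h). Of all tested genes, 0.164% were called at 2 h. At 6 h 2.75% were called lower and 0.54% higher, and at 24 h 19.2% and 12.5%. The markers' summed intensity was 854 to 1008 on inhibitor arrays, against 886 to 916 on DMSO arrays.

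AXL, the receptor for GAS6 that marks dedifferentiated melanoma cells, was not called at any time. It read 203, 225 and 260 with PD184352 at 2, 6 and 24 h and 211, 212 and 250 with PLX4720, against 229, 238 and 248 with DMSO. The inhibitor arrays lay slightly below DMSO at 2 and 6 h and slightly above it at 24 h. At 24 h the log2 change was 0.04 (95% interval −0.16 to 0.24, adjusted p = 0.804).

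MET, the receptor for hepatocyte growth factor, had intensities of 577, 547 and 727 with PD184352 at 2, 6 and 24 h and of 650, 573 and 686 with PLX4720, against 682, 668 and 682 with DMSO. The 3 DMSO arrays spanned only 0.03 on the log2 scale, and the inhibitor arrays were below them at 2 and 6 h. The log2 change was −0.26 at 6 h (95% interval −0.48 to −0.03, adjusted p = 0.241) and 0.05 at 24 h (95% interval −0.17 to 0.27, adjusted p = 0.786), and neither was called.

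PDGFRB, a receptor for platelet-derived growth factor, read 131, 124 and 148 with PD184352 at 2, 6 and 24 h and 119, 129 and 139 with PLX4720, against 125, 113 and 121 with DMSO. Its values lay little above the array medians, 98.96 to 102.4, and detection of PDGFRB was not tested. Both inhibitor arrays were above every DMSO array at 24 h. The log2 change there was 0.24 (95% interval 0.03 to 0.45), with an adjusted p of 0.0777, so it was not called. With the mean of the 3 DMSO arrays as the control it was 0.26 and was called (adjusted p = 0.0171). Of 4 tested fibroblast markers, 1 was called higher at 24 h, FAP at 0.53, against 12.5% of all tested genes. FAP read 151, 144 and 110 with DMSO at 2, 6 and 24 h, so its 24 h DMSO array was the lowest. At 24 h it read 174 with PD184352 and 146 with PLX4720, the latter within the DMSO range. COL1A1, COL1A2 and COL3A1 were between 0.003 and 0.04 and were not called. The summed intensity of the 4 was 526 with PD184352 and 498 with PLX4720 at 24 h, against 460 with DMSO. Over all times it was 484 to 526 on inhibitor arrays, against 460 to 505 on DMSO arrays. The markers' part in the PDGFRB values was not tested.

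KIT, the receptor for stem cell factor, stayed dim on every array, at 32.0, 30.8 and 31.6 with PD184352 at 2, 6 and 24 h and 30.6, 31.1 and 30.1 with PLX4720, against 32.1, 30.3 and 28.3 with DMSO. When no gene was filtered out, its log2 change was −0.03, 0.03 and 0.12 at the 3 times, with an adjusted p of 0.959, 0.931 and 0.411. At such intensities the added 1 in log2(intensity + 1) understates changes only slightly, and detection of KIT was not tested.

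**Figure D2:**
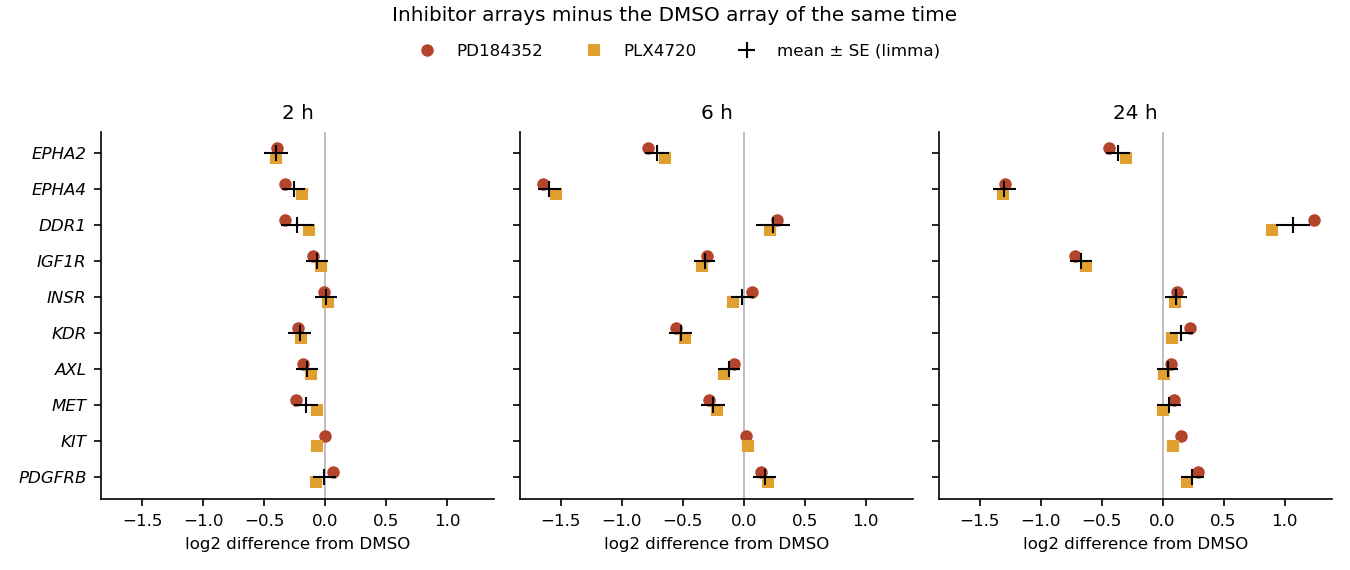
Log2 difference of each inhibitor array from its time-matched DMSO array (x axis) for the 10 receptor genes (rows), in a panel per time; circles are PD184352, squares PLX4720, and the black marks the mean with limma's SE for the 9 tested genes. EPHA4 stands furthest left at 6 and 24 h, at −1.60 and −1.30, and DDR1 furthest right at 24 h, at 1.07.

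The change itself differed between times for 4 of the 9 receptors by limma's F-test, against 14.9% of all tested genes. For EPHA4 the log2 change at 6 h minus that at 2 h was −1.34, and the change at 24 h minus that at 2 h was −1.04 (adjusted p = 0.000436). The same differences were 0.47 and 1.30 for DDR1 (adjusted p = 0.00419), −0.26 and −0.60 for IGF1R (adjusted p = 0.0224) and −0.31 and 0.36 for KDR (adjusted p = 0.0181). The IGF1R call was lost without the PLX4720 2 h array (adjusted p = 0.0552) and the KDR call without the PD184352 6 h array (adjusted p = 0.0531). For EPHA2 the test gave an adjusted p of 0.210, and for the other 4 between 0.360 and 0.836.

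**Figure D3:**
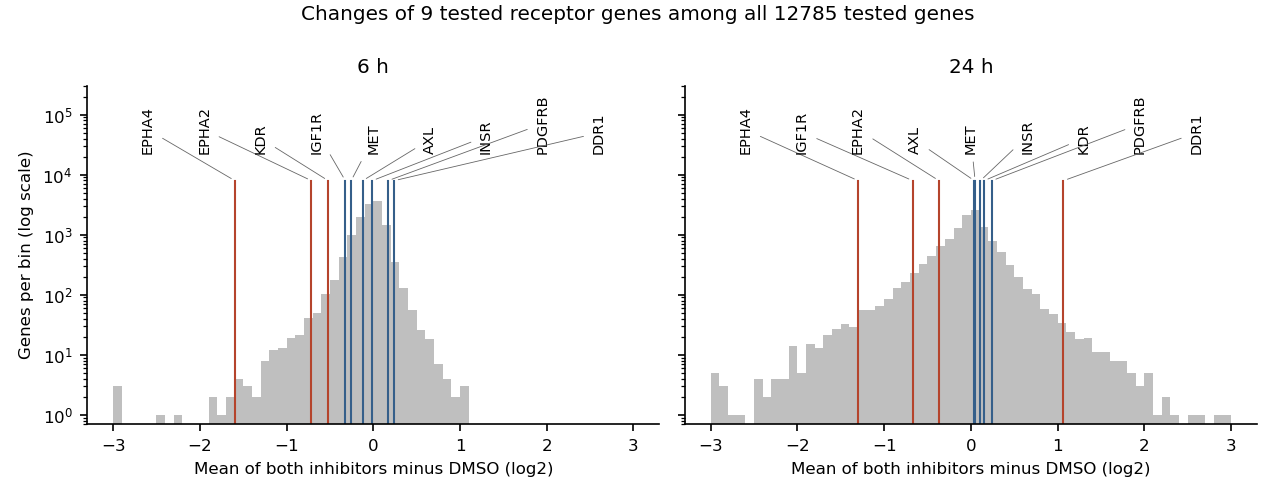
Number of genes (log axis) by mean log2 change of both inhibitors against DMSO at 6 h and 24 h, in grey over all 12785 tested genes with values beyond ±3 placed in the end bins; vertical lines mark the 9 tested receptors, red where called and blue where not. At 6 h the called receptors are EPHA4, EPHA2 and KDR on the left, and at 24 h EPHA4, IGF1R and EPHA2 on the left and DDR1 on the right.

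PD184352 and PLX4720 were compared with each other on the 6 inhibitor arrays as a mean over the 3 times, at doses that differ. By limma, 0 of the 9 receptors and 0 of 12785 genes (0%) were called different, and 0 of the 9 but 554 of all genes had an unadjusted p below 0.05. The largest mean difference was that of EPHA2, at −0.09 (PD184352 minus PLX4720, 95% interval −0.24 to 0.05), followed by EPHA4 at −0.08 (interval −0.22 to 0.07) and DDR1 at 0.07 (interval −0.12 to 0.26). The adjusted p was 1.00 for all 9, which does not show that the compounds act alike. DDR1 differed most at a single time, where PD184352 stood 0.35 above PLX4720 at 24 h and 0.20 below it at 2 h (−0.20), with no test at a single time. For EPHA4 at 24 h the inhibitor arrays differed by 0.02.

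**Figure D4:**
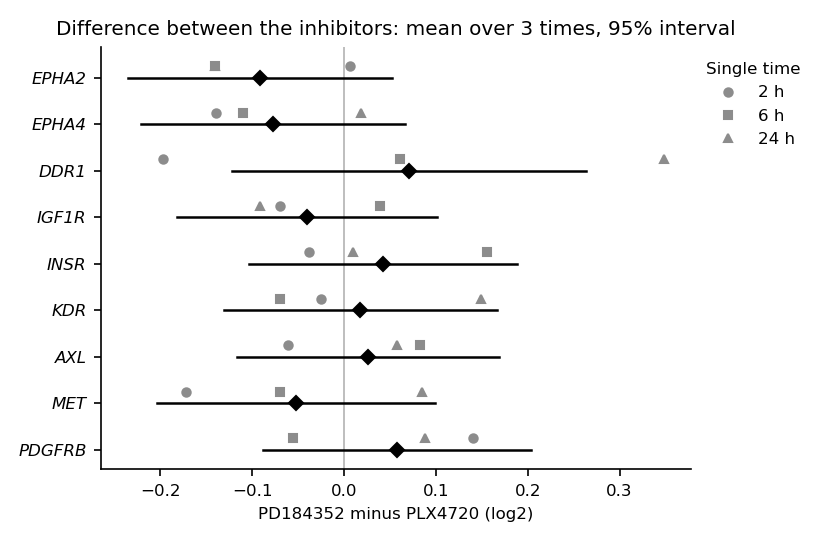
PD184352 minus PLX4720 in log2 units (x axis) for the 9 tested receptors: black diamonds are means over 3 times with their 95% interval, and grey symbols the single times. All 9 intervals include 0, and the grey points of DDR1 spread widest, between −0.20 and 0.35.

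The genes whose levels followed these receptors most closely were sought by Pearson's r over the 9 arrays among all tested genes. For EPHA4 the highest values were those of ERO1B (0.992), WNK4 (0.984), MYEOV (0.981), TFAP2C (0.977) and PXYLP1 (0.976). For DDR1 they were those of TULP3 (0.985), TRIM66 (0.980), MAVS (0.978), CLTCL1 (0.978) and SLC16A5 (0.976). The arrays share agents and times, so these values describe parallel profiles and carry no test.

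Of 12 further ephrin receptor genes 8 were tested, and at 24 h 2 fell and 0 rose, against 19.2% and 12.5% of all tested genes. They were EPHA3 (−0.98, SE 0.10, adjusted p = 4.79e-05) and EPHB4 (−0.34, SE 0.09, adjusted p = 0.0169). EPHA10 was at −0.19 and EPHB3 at −0.09, and neither was called. Of the 8 ephrin ligand genes, all tested, 1 fell and 2 rose at 24 h, against the same shares. EFNA5 fell to a log2 change of −0.68 at 6 h (adjusted p = 0.00318) and −1.12 at 24 h (SE 0.09, adjusted p = 1.58e-05). EFNA1 rose by 0.43 at 6 h (adjusted p = 0.0314) and 0.39 at 24 h (adjusted p = 0.00786), and EFNB3 by 0.36 at 24 h (adjusted p = 0.0106). EFNB2, at −0.32 at 24 h, was not called (adjusted p = 0.0693), but it was at −0.42 and called (adjusted p = 0.0142) without the PD184352 24 h array. The median change at 24 h was −0.06 for these receptors and −0.14 for the ephrins, against −0.01 over all tested genes.

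Of 36 other receptor tyrosine kinase genes 22 were tested, and 4 rose and 2 fell at 24 h, against 12.5% and 19.2% of all tested genes, with a median of 0.00. The largest rises were those of ERBB3 at 0.92 (SE 0.13), ERBB4 at 0.70 (SE 0.09) and ERBB2 at 0.58 (SE 0.10), all called. EGFR, also an ERBB receptor gene of this list, did not pass the intensity filter and was not tested. The WNT co-receptor RYK fell, at −0.52 (SE 0.12). The remaining calls, named after their values were seen, were the VEGF receptor gene FLT1 (0.45, adjusted p = 0.00303) and the collagen receptor gene DDR2 (−0.38, adjusted p = 0.0253), and without the PD184352 24 h array 1 gene of the group fell. ERBB3 read 2482 with PD184352 and 2038 with PLX4720 at 24 h, against 1190 with DMSO. ERBB4 read 115 with PD184352 and 105 with PLX4720 at 24 h. Its other arrays lay between 67.3 and 71.0, below the lowest tested mean of 73.5. ERBB4 thus passed the filter only through the arrays where it was high, and its place among the genes that rose is not independent of the filter. With no gene filtered out its change was also 0.70 and called. With all rows of a gene averaged, RYK was at −0.31. No gene of this group was called by limma at 2 h (0 of 22), against 0.164% of all tested genes. At 6 h 0 of 22 were called too, against 2.75% called lower and 0.54% called higher.

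Among 12 ligands of the non-ephrin receptors, of which 7 were tested, 3 fell and 2 rose at 24 h, against 19.2% and 12.5% of all tested genes. VEGFA, a ligand of KDR, was at −0.70 at 6 h (adjusted p = 0.00231) and −0.97 at 24 h (SE 0.09, adjusted p = 3.13e-05). Its intensity was 219 with PD184352 and 229 with PLX4720 at 24 h, against 439 with DMSO. At 2 h IGF2, a ligand of IGF1R, was the 1 gene called (−0.77, adjusted p = 0.0477). The IGF2 call was lost after quantile normalization, where 0 of all genes were called at 2 h, and without either 2 h inhibitor array. With no gene filtered out 1 of all genes was called at 2 h, and whether it was IGF2 is not given here. At 24 h PDGFD was at −0.38 (adjusted p = 0.0314), and both genes are named after their values were seen. KITLG, which encodes the ligand of KIT, fell at 24 h (−0.65, SE 0.11), while PDGFB, a ligand of PDGFRB, rose (0.44, SE 0.09). PROS1, a ligand of the AXL family, was at 0.55 (SE 0.09) and called, but at 0.22 and not called (adjusted p = 0.135) with all of its rows averaged.

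Of 37 genes for adaptors that dock on active receptors, 28 were tested, and 8 rose and 2 fell at 24 h, against 12.5% and 19.2% of all tested genes. SHC4 was at 1.40 (SE 0.12), PIK3R3, a regulatory subunit of PI3-kinase, at 1.26 (SE 0.14), the docking protein GAB1 at 0.94 (SE 0.10) and IRS1, the main substrate of IGF1R and INSR, at 0.59 (SE 0.10), and all 4 were called. With all rows averaged PIK3R3 was at 0.67 and GAB1 at 0.38. The genes that fell were GRB10 (−0.40) and PTPN11 (−0.35). At 2 h the 1 gene called was DOK3 (−0.55, adjusted p = 0.0479), against 0.164% of all tested genes. Its call was lost after quantile normalization and without either 2 h inhibitor array. GRB10, PTPN11 and DOK3 are named after their values were seen. The number that fell at 24 h was 1 without the PLX4720 24 h array and 6 against the mean of the 3 DMSO arrays. The median change of the group was 0.06. At 6 h 0 of the 28 were called by limma, against 2.75% of all tested genes called lower and 0.54% called higher.

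Of 24 genes for negative regulators of receptors, 19 were tested. At 6 h 4 fell and 0 rose, against 2.75% and 0.54% of all tested genes, and at 24 h 9 fell and 3 rose, against 19.2% and 12.5%. ERRFI1, an inhibitor of ERBB kinases, was at −0.91 at 2 h (adjusted p = 0.0270, a call lost after quantile normalization and without either 2 h inhibitor array), −2.48 at 6 h (adjusted p = 1.03e-05) and −2.90 at 24 h (SE 0.12, adjusted p = 1.20e-06). With no gene filtered out 1 of all genes was called at 2 h, so at most 1 of the 2 h calls of ERRFI1, IGF2 and DOK3 held there. The other genes that fell at 6 h, named after their values were seen, were UBASH3B (−0.95), TIMP3 (−0.56) and LRIG3 (−0.54), and SOCS2 was the third that rose at 24 h (0.33). SOCS6, a SOCS-family gene, was at −0.67 (SE 0.11) at 24 h. IGFBP5, which binds insulin-like growth factors, rose (1.39, SE 0.15), as did the ubiquitin ligase gene CBLB (0.70, SE 0.11). The median change of the group was −0.20 at 24 h. The counts in these 6 groups have no test of their own.

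**Figure D5:**
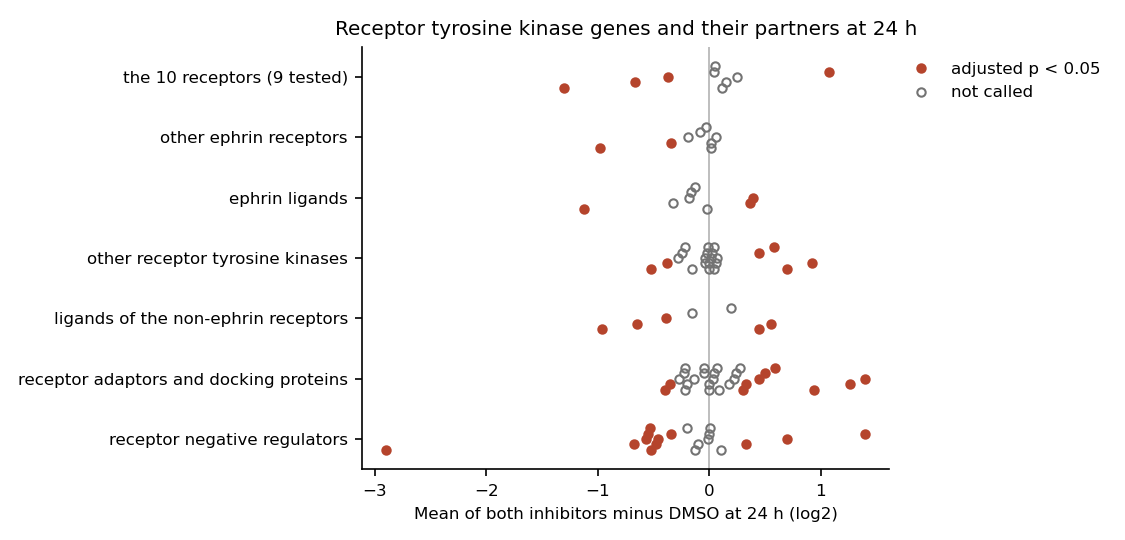
Mean log2 change of both inhibitors against DMSO at 24 h (x axis) for the 9 tested receptors and the tested genes of 6 further groups, with 1 point per gene, filled where called. The ephrin EFNA5 stands at −1.12 and the regulator ERRFI1 at −2.90, and SHC4 and IGFBP5 lead on the right at 1.40 and 1.39.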

How the data were processed

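The series used an exon array summarised by gene, with 1 transcript cluster per row. The authors deposited linear intensities. RMA, limma and R 2.8.0 appear in the submitters' processing notes, without a role. The sources used here give no genome build for the array, and promoter coordinates come from RefSeq alone.

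From these, log2(value + 1) was computed with no further normalization. Of 35446 rows, 19380 had 1 platform symbol, 3339 several and 12727 none listed. Of 17047 genes the 4262 with the lowest mean intensity (25%) were left out, and 12785 were tested. limma 3.58.1 in R 4.3.3 fitted time with an inhibitor term at each time (residual degrees of freedom 3), with an F-test between times. A second limma fit compared both compounds on the 6 inhibitor arrays, with time as a block (2 degrees of freedom). P-values were Benjamini-Hochberg adjusted over all tested genes. The fits were checked on simulated data. For arrays, their number limits the precision. Identical arrays numbered 0.

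The receptors and gene lists were chosen with earlier results of these data known. The genes named are all 10 receptors, the 4 tested genes of each list with the largest absolute change at 24 h, and the 5 genes most like the receptors with the largest fall and rise. Further list genes named where a count was small were chosen after their values were seen, as is said beside them. Alternatives were the filter, normalization, pseudocount (16), rows averaged, an intensity trend, the mean DMSO control, another compound fit and each array left out.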

Additional observations from a re-analysis of the deposited data

Results flagged for a closer look

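For 4 receptors the change with the inhibitors differed between times by limma's F-test. The change at 24 h minus the change at 2 h was −1.04 for EPHA4, 1.30 for DDR1, −0.60 for IGF1R and 0.36 for KDR. For KDR and DDR1 the mean change of both inhibitors was below 0 at 2 h and above 0 at 24 h. Each time rests on 1 array per agent. No group held enough arrays for a check of single outlying arrays.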

How the results depend on the processing

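The alternative settings vary 1 choice at a time, and the filter on mean log2 values was chosen after seeing the data. No call of a receptor changed direction under any setting. Receptors called at 2 h stayed at 0. With arrays left out in turn, 2 to 3 were called at 6 h, 3 to 4 at 24 h and 3 to 4 by the F-test. Over all genes the calls then numbered 203 to 801 at 6 h and 3385 to 4073 at 24 h. With the dimmest 50% of genes left out, 6 receptors were tested, 1 was called at 6 h and 2 by the F-test, since EPHA4, KDR, KIT and PDGFRB were too dim to enter. Against the mean of the 3 DMSO arrays 6 were called by the F-test, AXL and MET added, and 5 at 24 h. Calls at 24 h over all 12785 tested genes also rose with that control, from 4053 to 4954. The F-test count over all genes with that control is not given here. No receptor was called between the compounds in any setting (0). When an array is left out, its lone partner is assumed to vary like the others.

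Sign changes occurred only in values that were not called. Quantile normalization gave 0.0196 for IGF1R at 2 h, and −0.00337 and 0.00244 for INSR at 2 and 6 h. The mean DMSO control gave −0.0532 for INSR and 0.0608 for PDGFRB at 2 h, and −0.104 for EPHA2 at 24 h minus 2 h. With arrays left out, the change ranged over −0.0375 to 0.103 for EPHA2 at 24 h minus 2 h, −0.0107 to 0.0272 for INSR at 2 h, −0.0893 to 0.0658 for INSR at 6 h and −0.0771 to 0.0633 for PDGFRB at 2 h. PD184352 minus PLX4720 then ranged over −0.00167 to 0.0700 for AXL, −0.0678 to 0.205 for DDR1, −0.0140 to 0.0825 for INSR, −0.0477 to 0.0619 for KDR and −0.121 to 0.00788 for MET. The cause was not tested.

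The number of all genes called at 2 h, 21, was 0 after quantile normalization, 1 with no filter, 9 with rows averaged, 11 with the filter on mean log2 values, 13 with an intensity trend, 33 with the dimmest 50% left out or the mean DMSO control, and 0 to 97 with arrays left out. At 6 h 420 became 252 with no filter and 203 to 801 with arrays left out. Between the compounds 0 became 25 with the dimmest 50% left out and 0 to 25 with arrays left out. No paired analysis was possible because each agent has a single replicate per time, so replicate numbers cannot form a block; time itself is a term in both fits.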
